A study of Mus musculus with 14 samples.

Results

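Laminins are large secreted glycoproteins of the basement membrane, the thin sheet of matrix under epithelia and around muscle, fat and vessels. Each molecule is a trimer of 1 alpha, 1 beta and 1 gamma chain, every chain is encoded by its own gene, and the alpha chain carries the globular domains that bind cell surface receptors. The trimer of alpha1, beta1 and gamma1 is the first laminin of the mouse embryo. In embryoid bodies (EBs), aggregates in which mouse embryonic stem cells (ESCs) differentiate spontaneously, the endoderm that forms at the surface is known to lay down a basement membrane that contains it. The transcripts described here are those of 9 laminin chains, chosen by gene symbol: the alpha chains Lama1, Lama2, Lama3, Lama4 and Lama5, the beta chains Lamb1 and Lamb2, and the gamma chains Lamc1 and Lamc3. They are 9 of the 16181 genes in the deposited table of CPM, read counts scaled to the library total, and Lamb3, a further beta chain, is used only to complete the composition of the beta chains.

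Messenger RNA was sequenced from 2 mouse ESC lines, one carrying a short hairpin RNA against Dis3l2 (shDis3l2) and the other a control hairpin against LacZ (shLacZ). DIS3L2 is a nuclease that degrades RNAs tagged with uridines. Both lines were sampled undifferentiated at d0, in medium with leukemia inhibitory factor and a pair of kinase inhibitors (LIF/2i), and as EBs every second day from d2 to d12 after withdrawal of these factors and aggregation in hanging drops with serum. By the study's description the hairpins are stably expressed in an ESC line with an Osr1-GFP reporter, and whether each line is a clone or a pool is not given in the sources used here. There are 14 libraries, 1 for each line on each day. No replicate therefore stands behind any one day. Tests of the line difference over several days treat the days of 1 series as replicates. Their p-values measure agreement between days of these 2 lines, not between cultures. In the tests of steps between days, the 2 lines stand in for replicates of a day. Those p-values weigh a step against differences between the lines, again not between cultures. The libraries are of whole EBs, in which fewer cells of a type and less RNA per cell cannot be told apart.

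Between 7178712 and 39888099 reads per library were counted on genes, and 3 reads, the floor used here, correspond to 0.0752 CPM in the deepest library (shLacZ d0) and 0.418 CPM in the shallowest (shLacZ d4). Both libraries of d0 stood apart in their make-up, with factors of 0.752 (shLacZ) and 0.622 (shDis3l2) by the trimmed mean of M-values (TMM) against 1.02 to 1.12 in the other 12. Folds against d0 therefore depend on the scaling. The targeted transcript, Dis3l2, had 28.7 CPM in the control at d0 and 3.93 CPM in the knockdown line, which is 13.7%. It was at 28.1%, 32.1% and 55.2% of the control at d2, d4 and d6 and at 75.4% at d12. At d8 the ratio was 0.971 with a 95% counting interval of 0.837 to 1.13, and at d10 it was 0.950 (0.788 to 1.15), so no knockdown was detectable in the mRNA on these days at this depth. The comparisons between the lines that follow rest on the labels of the lines on those days.

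Lama1, Lamb1 and Lamc1, the chains of the early trimer, became some of the most abundant transcripts of the EBs in both lines. Together they held 0.0281% of the reads in shLacZ at d0 and 1.79% at d12, and 0.0206% and 0.963% in shDis3l2. By CPM at d12, Lama1 ranked 4th, Lamc1 6th and Lamb1 8th of 21889 protein-coding genes in shLacZ, and 11th, 14th and 19th in shDis3l2. The 3 chains did not start together. Lamb1 came first, and Lamc1 had the highest ESC level of the 3. With library totals, Lama1 stayed near its ESC level until d4 in shDis3l2 and d2 in shLacZ, a reading that depends on the scaling of d0.

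Lama1 (ENSMUSG00000032796, GRCm38, chr17:67697265-67822645, plus strand) encodes alpha1, which is largely restricted to embryonic and a few adult epithelial basement membranes. It was at 86.4, 84.6, 177, 830, 1632, 3976 and 7092 CPM on the 7 sampled days in shLacZ, from d0 to d12. In shDis3l2 it was at 79.6, 81.6, 85.4, 238, 699, 1830 and 3816 CPM on the same days. The lines were close at d0 and d2, and shLacZ was higher on each of the 5 later days. The d12 level was 82.1-fold that of d0 in shLacZ and 47.9-fold in shDis3l2. Most of this came after d4, with 4.70-fold and 2.78-fold from d4 to d6 and 8.55-fold and 16.0-fold from d6 to d12.

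Lamb1 (ENSMUSG00000002900, GRCm38, chr12:31265234-31329644, plus strand) encodes beta1, the beta chain of most embryonic laminins. It was at 37.3, 274, 379, 819, 1404, 2871 and 5069 CPM in shLacZ from d0 to d12, and at 24.4, 221, 328, 469, 748, 1333 and 2670 CPM in shDis3l2. Its level was higher on each sampled day than on the day before it in both lines, and it was lower in shDis3l2 on each of the 7 days. The first step was large with library totals, at 7.35-fold from d0 to d2 in shLacZ and 9.03-fold in shDis3l2. On the same scaling Lama1 was at 0.979 and 1.03 times its d0 level at d2.

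Lamc1 (ENSMUSG00000026478, GRCm38, chr1:153218922-153332786, minus strand) encodes gamma1, the gamma chain shared by most laminins. It was at 158, 297, 355, 832, 1407, 3308 and 5774 CPM in shLacZ and at 102, 265, 201, 552, 769, 1730 and 3141 CPM in shDis3l2. It was lower in shDis3l2 on each of the 7 days. Its d12 level was 36.6-fold that of d0 in shLacZ and 30.8-fold in shDis3l2, a smaller fold than for Lama1 or Lamb1.

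**Figure D1:**
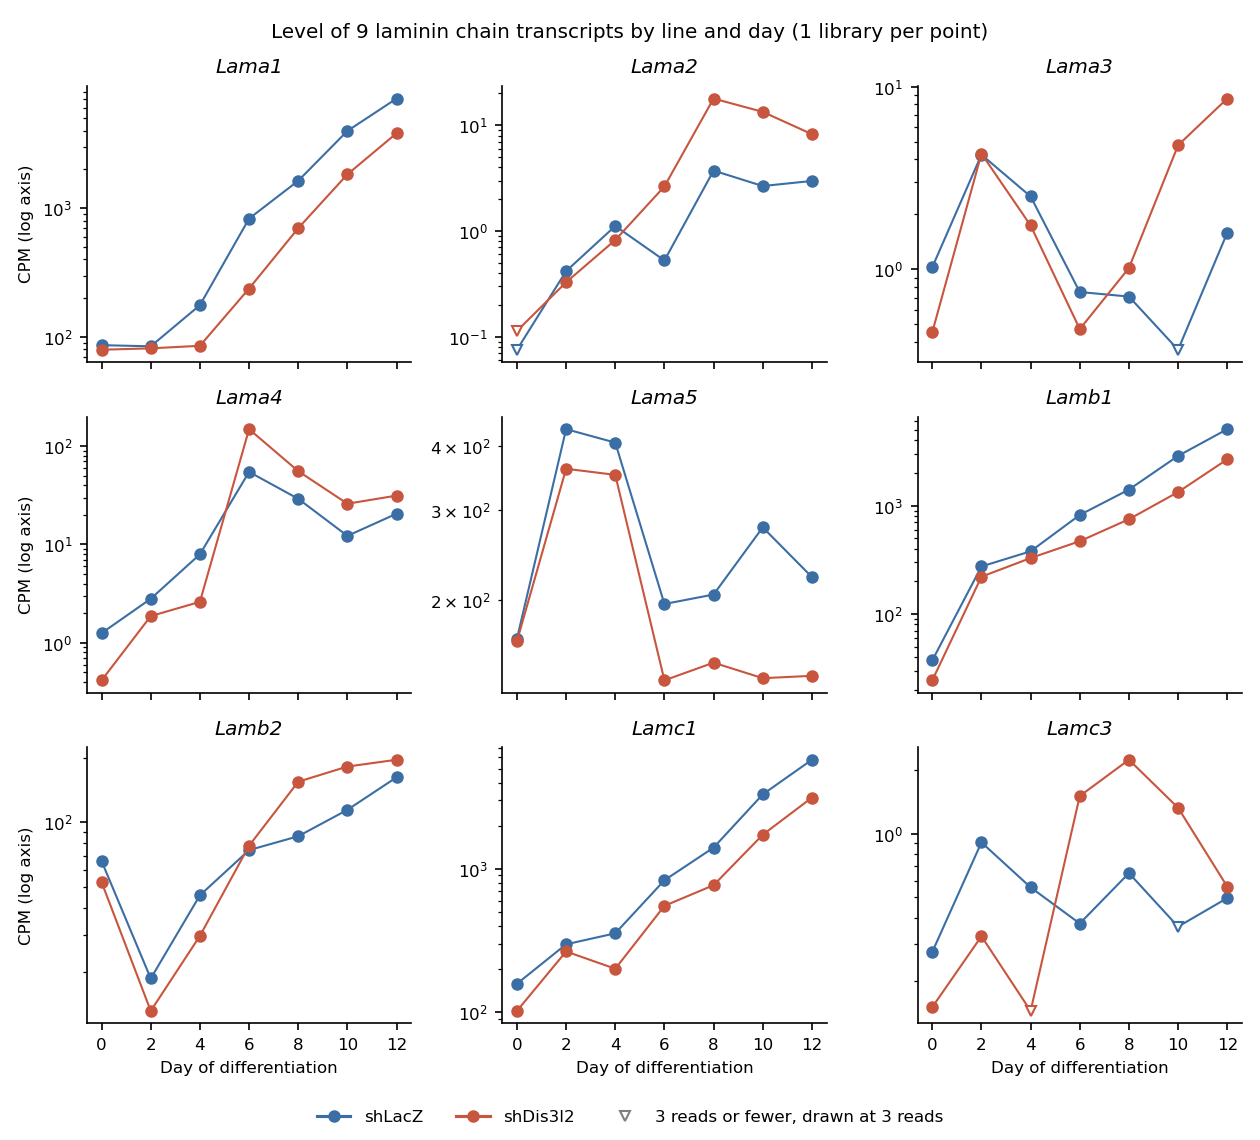
Level of each of the 9 chains (y axis, CPM on a log axis with its own range in each panel) against the day of differentiation (x axis, days) in shLacZ (blue) and shDis3l2 (red), with 1 library per point and open triangles for libraries with 3 reads or fewer. Lama1, Lamb1 and Lamc1 climb to between 2670 and 7092 CPM at d12 with shLacZ above shDis3l2, while Lama2, Lama4 and Lamb2 run higher in shDis3l2 from d6, although Lamb2 differs little at d6.

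Lama5 (ENSMUSG00000015647, GRCm38, chr2:180176373-180225859, minus strand) encodes alpha5, the most widespread alpha chain of epithelia and vessels, and also a laminin chain that ESCs make. It was at 168, 432, 406, 197, 205, 278 and 222 CPM in shLacZ and at 166, 361, 351, 140, 151, 141 and 142 CPM in shDis3l2. Its level was highest at d2 in both lines and was 0.484 times (shLacZ) and 0.397 times (shDis3l2) the d4 level at d6. From d6 on it was lower in shDis3l2 without overlap between the lines.

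Lama4 (ENSMUSG00000019846, GRCm38, chr10:38965515-39110188, plus strand) encodes alpha4, a chain of vessel walls, muscle and other mesenchymal tissue. It was at 1.25, 2.80, 7.94, 54.6, 29.1, 12.2 and 20.5 CPM in shLacZ and at 0.415, 1.87, 2.61, 149, 55.6, 26.0 and 31.4 CPM in shDis3l2. Both lines peaked at d6, after 6.88-fold (shLacZ) and 57.0-fold (shDis3l2) from d4, and the line with less Lama4 up to d4 had more from d6 on.

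Lamb2 (ENSMUSG00000052911, GRCm38, chr9:108479736-108490530, plus strand) encodes beta2, which replaces beta1 in the laminins of the neuromuscular junction and the kidney filter. It was at 65.9, 18.7, 45.7, 74.2, 86.1, 114 and 162 CPM in shLacZ and at 52.6, 13.2, 29.6, 77.8, 154, 182 and 196 CPM in shDis3l2. At d2 it was at 0.284 (shLacZ) and 0.251 (shDis3l2) times its d0 level. It was lower in shDis3l2 at d2 and d4, and at d0 by -0.33 on the log2 scale with library totals but by -0.05 with TMM and 0.07 with DESeq2 size factors, and it was higher at d8, d10 and d12.

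The remaining 3 chains stayed scarce. Lama2 (chr10:26980036-27619758, minus strand), whose alpha2 chain surrounds muscle fibres and Schwann cells, had 1 read in shLacZ and 0 in shDis3l2 at d0, where the floor is 0.0752 and 0.113 CPM. From d6 to d12 it was at 0.526, 3.73, 2.66 and 2.98 CPM in shLacZ and 2.64, 17.9, 13.4 and 8.24 CPM in shDis3l2, higher in shDis3l2 on each of the 4 days. Lama3 (chromosome 18), whose alpha3 chain anchors the epidermis, lay between 0.242 and 4.25 CPM in shLacZ and between 0.453 and 8.62 CPM in shDis3l2, with its shDis3l2 maximum at d12. Lamc3 (chr2:31887291-31946539, plus strand), encoding gamma3, lay between 0.121 and 0.910 CPM in shLacZ and between 0.0483 and 2.24 CPM in shDis3l2, with at most 44 reads in a library. Antisense genes overlap exons of Lama2 (Gm48084), Lama3 (Gm29200) and Lamc3 (Gm13441), and they held 1, 3 and 0 reads over the 14 libraries.

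Steps between days were tested in an additive edgeR fit of day and line over the 14 libraries, in which both lines give 1 library a day. The lines are not replicates of 1 condition, so differences between them that vary by day enter the spread. From d0 to d4, 3 of the 9 chains rose at an adjusted p under 0.05, Lama2, Lama4 and Lamb1, against 34.6% of the 20050 genes tested, and 1 fell, Lamb2, against 31.6%. Lamb1 rose by 2.93 on the log2 scale (SE 0.27, adjusted p = 8.17e-06), and Lamb2 fell by 1.28 (SE 0.30, adjusted p = 0.00356). Lama1 did not pass, at -0.15 with TMM and 0.52 with library totals. The scaling moves the median of all genes in this step from 0.13 with TMM to 0.74 with library totals, which also ends the call of Lamb2 and adds Lama5 (1.17) and Lamc1 (1.07) to the chains that passed upwards, and it turns the split of all genes from 6935 higher and 6331 lower to 9271 higher and 4258 lower. The call of Lama4 (1.88, adjusted p = 0.0409) was lost with DESeq2 size factors, while that of Lama2 (4.77, adjusted p = 0.00640) held, on 1 and 0 reads at d0.

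From d4 to d6, 4 chains rose, Lama1, Lama4, Lamb2 and Lamc1, against 7.54% of all genes, and 1 fell, Lama5, against 6.24%. Lama4 had the largest step, 4.33 (SE 0.70, adjusted p = 0.00480), followed by Lama1 with 1.98 (SE 0.42, adjusted p = 0.0140) and Lamc1 with 1.39 (SE 0.22, adjusted p = 0.00460). Lama5 fell by 1.15 (SE 0.25, adjusted p = 0.0164). Lamb2 had 1.07 (adjusted p = 0.0424), lost with library totals. Lamb1 had a log2 step of 0.84 and missed the threshold at an adjusted p of 0.0509, with 0.0102 to 0.0462 under the 5 alternatives run. From d6 to d12, 4 chains rose, Lama1, Lamb1, Lamb2 and Lamc1, against 5.02% of all genes, and no chain passed the test downwards. Lama4 had -1.98 (adjusted p = 0.0724) and passed downwards with DESeq2 and without a filter on low counts. The log2 steps were 3.43 (SE 0.44, adjusted p = 0.00333) for Lama1, 2.61 (SE 0.23, adjusted p = 0.000712) for Lamc1 and 2.53 (SE 0.26, adjusted p = 0.00102) for Lamb1. Lamb2 had 1.18 (SE 0.30) with an adjusted p of 0.0431, which was lost with library totals or DESeq2 size factors.

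To compare chains with one another, CPM was divided by the length of the merged exons in kilobases. Among alpha chains, Lama5 held 61.4% of the summed CPM per kb in shLacZ and 63.4% in shDis3l2 at d0, and 79.9% and 77.6% at d2. Lama1 then took over in both lines, with 79.9% in shLacZ but 50.2% in shDis3l2 at d6, and with 97.2% and 96.1% at d12. At d6 in shDis3l2 Lama4 held 24.8% of the alpha chains and Lama5 24.6%, against 4.15% and 15.8% in shLacZ. In no other of the 14 libraries was the leading alpha chain as low a share as in this one.

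The beta chains switched earlier than the alpha chains. Lamb2 held 72.2% of the summed CPM per kb of Lamb1, Lamb2 and Lamb3 in shLacZ at d0 and 75.9% in shDis3l2, and by d2 Lamb1 held 88.4% and 89.4%. Afterwards the lines parted. From d6 to d12 the share of Lamb2 in shLacZ was 12.8%, 9.08%, 6.09% and 4.95%, and in shDis3l2 it was 21.2%, 25.1%, 18.2% and 10.7%.

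**Figure D2:**
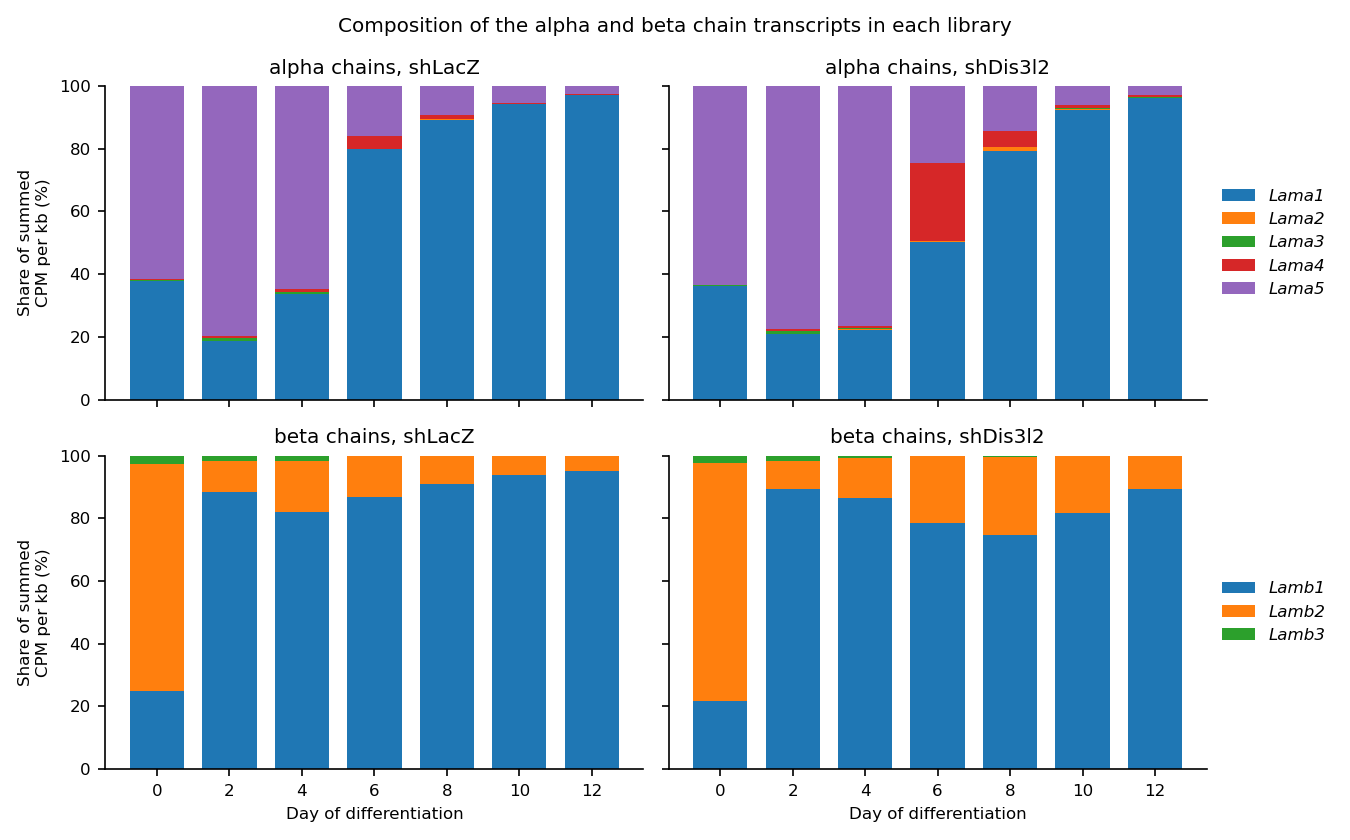
Share of each chain in the summed CPM per kb (y axis, percent) of the alpha chains (top) and beta chains (bottom) by day of differentiation (x axis, days) in shLacZ (left) and shDis3l2 (right), with 1 library per bar. The alpha chains pass from mostly Lama5 to mostly Lama1 between d4 and d6, the beta chains pass from mostly Lamb2 to mostly Lamb1 between d0 and d2, and the shDis3l2 bars keep more Lama4 at d6 (24.8% against 4.15%) and more Lamb2 from d6 to d12.

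In CPM per kb at d12 the order was the same in both lines for the 5 most abundant chains, Lama1, Lamc1, Lamb1, Lamb2 and Lama5, with 745, 698, 511, 26.6 and 19.5 in shLacZ and 401, 380, 269, 32.1 and 12.5 in shDis3l2. Lama1 and Lamc1 were close, and Lamc1 was above Lama1 in shDis3l2 at d10, with 209 against 192. The level of Lama1 per kb relative to Lamb1 was 2.41 at d0, 0.321 at d2 and 1.46 at d12 in shLacZ, and 3.39, 0.385 and 1.49 in shDis3l2. The transcripts of the 3 chains of the early trimer came within 1.46-fold of each other at d12 in shLacZ, after Lama1 had been the scarcest of them at d2 in both lines.

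Between d6 and d12 the lines differed in 8 of the 9 chains, in both directions. The chains of the early trimer and Lama5 were lower in shDis3l2, and Lama2, Lama4, Lamb2 and Lamc3 were higher. In the edgeR fit of line with day as a block over these 8 libraries, 4 chains were higher at an adjusted p under 0.05 against 19.6% of the 17164 genes tested, and 4 were lower against 18.7%. The median log2 difference was 0.46 over the 9 chains and 0.02 over all genes.

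Of the lower chains, Lama1 had a log2 difference of -1.27 (SE 0.14, adjusted p = 0.00109). Lamb1 differed by -0.95 (SE 0.07, adjusted p = 0.000417) and Lamc1 by -0.83 (SE 0.08, adjusted p = 0.000712). Each of these chains was lower in shDis3l2 on 4 of 4 days, and so was Lama5, at -0.65 (SE 0.10, adjusted p = 0.00286). The 4 calls held under each of the other scalings, tools and filters and when any 1 of the days was left out.

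Of the higher chains, Lama2 had the largest difference, 2.07 (SE 0.21, adjusted p = 0.000904), and Lama4 had 1.02 (SE 0.14, adjusted p = 0.00218), both on 4 of 4 days. Lamb2 was higher by 0.46 (SE 0.13, adjusted p = 0.0329) on 4 of 4 days, although its d6 ratio of 1.05 (0.954 to 1.15) spans 1, and Lamc3 by 1.72 (SE 0.46, adjusted p = 0.0243) on few reads. The call of Lamb2 was lost without d8 or without d10, and that of Lamc3 without d6, d8 or d10. Lama3 had 1.68 (SE 0.64) with an adjusted p of 0.0780 and passed without d6 (adjusted p = 0.0184) and without a filter on low counts (adjusted p = 0.00948). On d6 and d12 alone, without the days on which Dis3l2 was close to the control, edgeR called 0 of 15950 genes with 1 residual degree of freedom, and 3149 had an unadjusted p under 0.05. In that fit the log2 differences of Lama1, Lamb1 and Lamc1 were -1.36, -0.88 and -0.75, and those of Lama2, Lama4 and Lamb2 were 1.78, 1.04 and 0.15.

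On single days the ratio of the lines is given with a 95% Clopper-Pearson interval of the reads, which covers counting error only. A chain was taken as different when its CPM differed at least 3-fold and was at least 1 in 1 of the 2 libraries. At d0 1 of 7 chains compared was lower, Lama4 with 50 and 11 reads, against 2.36% of protein-coding genes. The ratio of Lama4 was 0.331 (0.156 to 0.645) with library totals, and it was under 3-fold with TMM or DESeq2 size factors. At d2 no chain differed, and at d4 1 of 8 was lower, Lama4 again at 0.329 (0.222 to 0.485), against 1.69%.

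At d6 1 of 8 chains compared was lower, against 4.27%, and 2 were higher, against 2.73%. The lower one was Lama1 at 0.287 (0.274 to 0.299), and the higher ones were Lama2 at 5.02 (2.14 to 13.6) and Lamc3 at 4.01 on 5 and 16 reads. At d8 2 of 9 were higher, Lama2 at 4.81 (3.67 to 6.39) and Lamc3 at 3.44 (1.75 to 7.39), against 5.5%. At d10 3 of 9 were higher against 8.62%, Lama2 at 5.03 (3.26 to 8.16), Lama3 at 19.8 (5.33 to 165) on 2 and 101 reads, and Lamc3 at 10.95 (1.81 to 448) on 1 and 28 reads. The Lama3 and Lamc3 ratios use the reads as counted, although both shLacZ counts are under the floor of 3 reads. That floor is 0.363 CPM in shLacZ at d10, beside 4.78 CPM of Lama3 and 1.33 CPM of Lamc3 in shDis3l2. The size of these 2 ratios is therefore not reliable. At d12 1 of 8 was higher, Lama3 at 5.43 (3.17 to 9.89), against 8.17%, and Lamc3 had 5 and 6 reads.

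**Figure D3:**
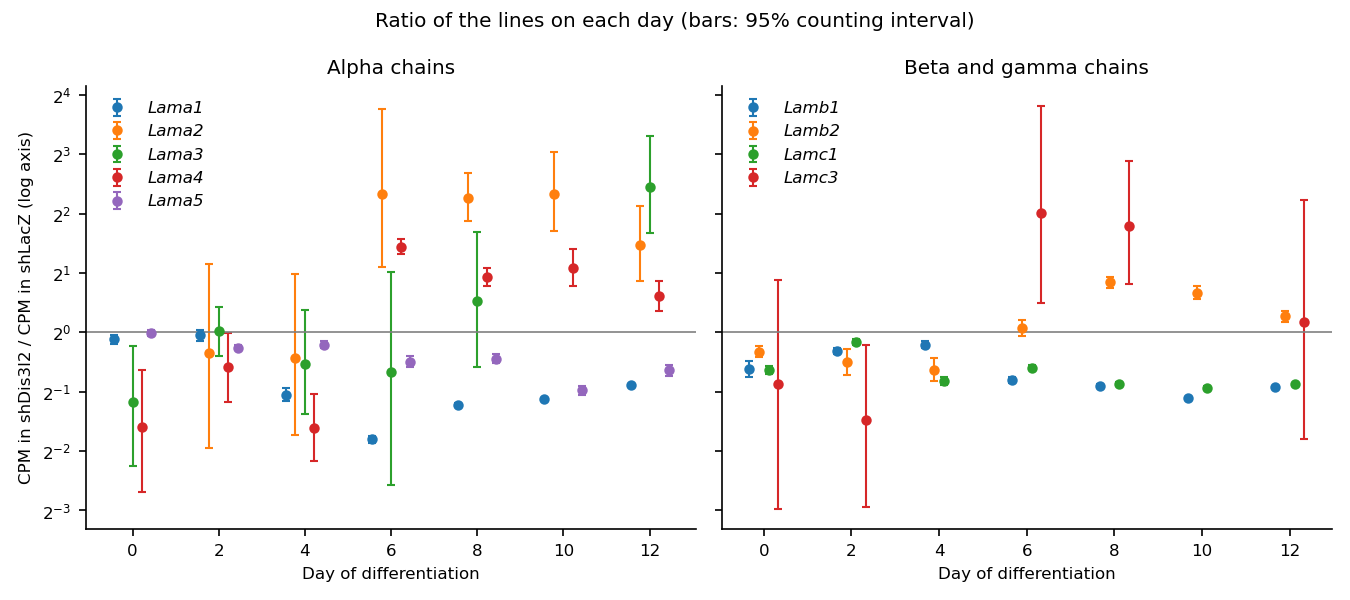
Ratio of CPM in shDis3l2 to CPM in shLacZ (y axis, log axis) for each chain by day of differentiation (x axis, days), alpha chains on the left and beta and gamma chains on the right, with bars for the 95% counting interval and no point where a library had 3 reads or fewer. Lama1 is lowest at d6 (0.287) and returns towards 1 by d12 (0.538), while Lama4 passes from below 1 up to d4 to above 1 from d6 on, as Lama2 does with intervals that span 1 at d2 and d4.

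The shortfall of the 3 chains of the early trimer was unequal at d6 and close to equal at d12. At d6 the ratio of Lama1 was 0.287, that of Lamb1 0.573 (0.554 to 0.592) and that of Lamc1 0.663 (0.642 to 0.684). At d12 they were 0.538 (0.532 to 0.545), 0.527 (0.519 to 0.534) and 0.544 (0.537 to 0.551). The ratio of Lama1 to Lamc1 within a library, which does not depend on the scaling, was 0.432 times (0.410 to 0.456) as high in shDis3l2 as in shLacZ at d6. On the 3 later days it was 0.784 times (0.761 to 0.807), 0.880 times (0.862 to 0.899) and 0.989 times (0.972 to 1.01) as high. At d0 it was 1.43 times (1.33 to 1.53) as high in shDis3l2. Relative to Lamb1 within a library, Lamb2 was 1.83, 3.37, 3.43 and 2.29 times as high in shDis3l2 over the 4 days from d6. Before that it was 1.22 times (1.09 to 1.36) as high at d0, 0.878 times (0.755 to 1.02) at d2 and 0.747 times (0.649 to 0.860) at d4. Lama4 relative to Lama1 was 9.49 times (8.61 to 10.5) as high at d6 and 2.84 times (2.39 to 3.38) at d12.

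The line difference itself was compared between d0 to d4 and d6 to d12 in a fit of all 14 libraries. Against 4.85% of the 20050 genes, 4 chains moved upwards, Lama2, Lama4, Lamb2 and Lamc3, and against 5.24%, 3 moved downwards, Lama1, Lama5 and Lamb1. Lama4 changed by 2.09 on the log2 scale (SE 0.31, adjusted p = 0.00631), which passed under all 11 alternatives run, as did Lamb1 with -0.73 (SE 0.12, adjusted p = 0.00900). The other 5 calls were lost under 4 to 7 of the alternatives. These include leaving out d2, d8 or d10 for each of the 5, d0 or d6 for Lama1, d4 for Lama2 and Lamb2, d0 or d12 for Lama5, and d4 or d6 for Lamc3, and the highest adjusted p over the alternatives was 0.179 for Lama1, 0.0794 for Lama2, 0.111 for Lama5, 0.122 for Lamb2 and 0.120 for Lamc3. With library totals the split of all genes called, 972 upwards and 1051 downwards, became 1135 and 415, and Lama1 and Lama5 no longer passed. Lamc1 had -0.45 with an adjusted p of 0.118. With all 7 days in 1 line difference, 3 chains were lower, against 3.82% of all genes, Lama1 (-0.89, adjusted p = 0.0447), Lamb1 (-0.69, adjusted p = 0.0249) and Lamc1 (-0.70, adjusted p = 0.0168), and none passed upwards. Lama2 had 1.41 (adjusted p = 0.0660) and passed upwards under 5 of 11 alternatives, with DESeq2, without a filter, and without d0, d2 or d4. The 3 lower calls were each lost when d6, d8, d10 or d12 was left out, and that of Lama1 also without d4 and with DESeq2 size factors, with an adjusted p of at most 0.145 for Lama1, 0.0949 for Lamb1 and 0.0728 for Lamc1.

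Promoters of 4 of the 9 chains, Lama2, Lama5, Lamb1 and Lamb2, were taken from the RefSeq table (build GRCm38.p6, windows of 300 bases around the annotated start). The Lama2 window, chr10:27616893-27617192, lies inside the Lama2 locus given above, which extends to 27619758 on the minus strand. No base of this window precedes the outermost start, so its letters and its share of G and C describe a stretch inside that locus. The part before the outermost annotated start is shown for Lamb1, Lamb2 and Lama5. Lamb1 and Lamb2 moved in opposite directions between d0 and d2, and their line differences had opposite signs from d8 on. Lama5 was the alpha chain with the largest share at d0. Capitals mark GC boxes (GGGCGG or its reverse complement CCGCCC), and no marked stretches overlap.
Lamb1 (chr12:31265043-31265145, plus strand): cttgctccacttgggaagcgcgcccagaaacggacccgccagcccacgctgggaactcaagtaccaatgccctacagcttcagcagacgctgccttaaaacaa
Lamb2 (chr9:108479612-108479735, plus strand): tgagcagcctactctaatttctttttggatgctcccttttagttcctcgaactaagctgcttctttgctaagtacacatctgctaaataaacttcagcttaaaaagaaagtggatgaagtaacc
Lama5 (chr2:180225905-180226109, minus strand): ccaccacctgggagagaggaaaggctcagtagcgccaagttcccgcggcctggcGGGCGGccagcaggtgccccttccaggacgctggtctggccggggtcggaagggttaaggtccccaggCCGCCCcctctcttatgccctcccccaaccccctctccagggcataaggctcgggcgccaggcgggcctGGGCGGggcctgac
The Lama5 stretch holds 3 GC boxes and those of Lamb1 and Lamb2 none. Over the full windows, Lama5 had 4, Lamb1 2, Lama2 1 and Lamb2 0, and 35.7% of the 32851 windows in the table hold at least 1. Letters of the GATA factor core (GATAA or TTATC) occurred once in the Lama2 window and not in the other 3, and 25.4% of all windows hold them. The SOX factor core (ACAAT or ATTGT) occurred once in the Lamb2 window, against 31% of all windows. The share of G and C was 72.7% for Lama5, 63.7% for Lamb1, 50.3% for Lama2 and 44% for Lamb2, beside a median of 52.7% over all windows.

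Laminins reach cells through integrins, dystroglycan and the Lutheran glycoprotein (Bcam). Over d6 to d12, 1 of 7 receptor genes was higher in shDis3l2 and 3 were lower, beside 19.6% and 18.7% of all genes tested, with a median log2 difference of -0.26 against 0.02 over all genes. Itgb1, the beta subunit shared by most laminin-binding integrins, was higher by 0.47 (SE 0.10, adjusted p = 0.0114). Its level from d6 to d12 was 566, 581, 524 and 588 CPM in shLacZ beside 849, 890, 789 and 641 CPM in shDis3l2. Itga6 and Itgb4, which pair as the integrin of hemidesmosomes, were lower by -0.52 (SE 0.12, adjusted p = 0.0144) and -0.95 (SE 0.13, adjusted p = 0.00198), and Bcam, a receptor of alpha5, by -0.45 (SE 0.14, adjusted p = 0.0409). Itga3 (-0.26, adjusted p = 0.0539), Itga7 of muscle (1.43, adjusted p = 0.0681) and dystroglycan, Dag1 (0.10, adjusted p = 0.214), did not pass the test.

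The other basement membrane genes also moved both ways. Of 14, 12 were tested over d6 to d12, 4 were higher and 5 lower in shDis3l2, beside 19.6% and 18.7% of all genes, with a median log2 difference of -0.05. Col4a1 and Col4a2, the main collagen IV chains, had -1.34 (SE 0.09, adjusted p = 0.000339) and -1.30 (SE 0.10, adjusted p = 0.000453). At d12 Col4a1 reached 16487 CPM in shLacZ against 7404 CPM in shDis3l2. Col4a5 and Col4a6, which form a different collagen IV trimer found around smooth muscle and in some epithelia, had 1.63 (SE 0.23, adjusted p = 0.00256) and 1.48 (SE 0.25, adjusted p = 0.00433). Sparc (-0.63), Tinagl1 (-0.83) and agrin, Agrn (-0.43), were lower, and Col15a1 (adjusted p = 0.0180) and Col18a1 (0.47, adjusted p = 0.0304) higher. The linkers of the laminin and collagen networks, nidogens Nid1 (0.69, adjusted p = 0.103) and Nid2 (-0.16, adjusted p = 0.379), and perlecan, Hspg2 (0.06, adjusted p = 0.660), did not pass. Col4a3 and Col4a4, the collagen IV chains of the kidney filter, were at 0.284 CPM or less in every library and were not tested.

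Netrins share the short arm domains of laminins. Of 6 listed, 5 were found in the count table and 4 were tested, with 1 higher, Ntng2 (1.964, adjusted p = 0.0150), and 2 lower, Ntn1 (-1.40, adjusted p = 0.00987) and Ntn4 (-1.24, adjusted p = 0.00442), beside the same 19.6% and 18.7%. The call of Ntng2 rests on few reads, 5, 4, 1 and 4 in shLacZ and 6, 29, 14 and 21 in shDis3l2 from d6 to d12. Ntn4, the netrin that binds laminin gamma chains in basement membranes, went from 2.56 CPM at d6 to 42.8 CPM at d12 in shLacZ and from 0.565 to 25.5 CPM in shDis3l2.

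**Figure D4:**
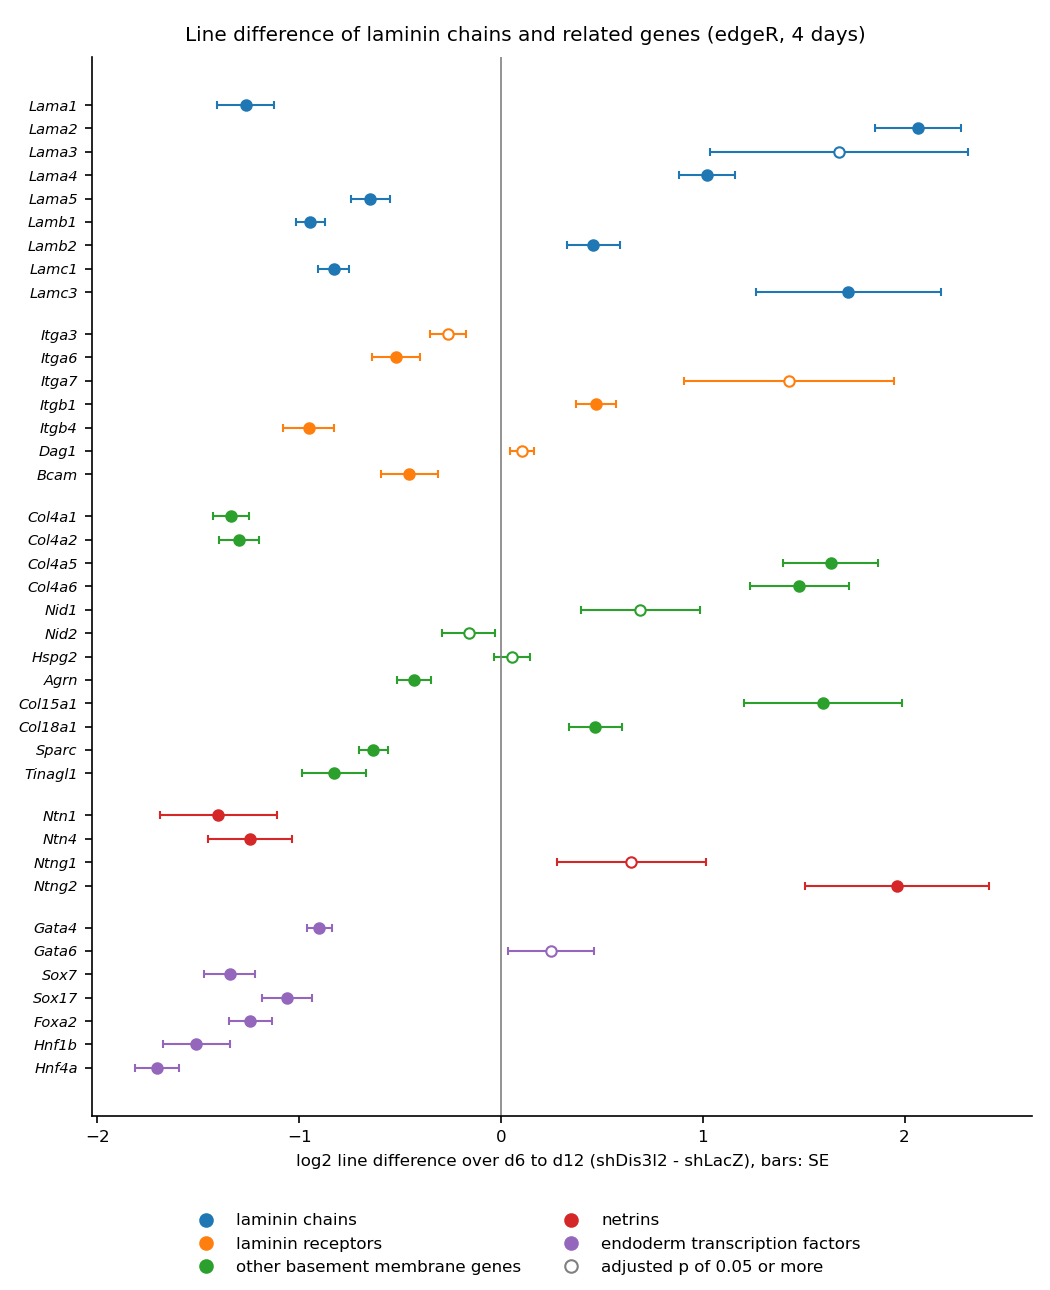
Line difference over d6 to d12 (x axis, log2, shDis3l2 minus shLacZ, with bars for the SE) of the tested laminin chains, receptors, other basement membrane genes, netrins and endoderm transcription factors (y axis, 1 gene a row), with open points for an adjusted p of 0.05 or more by edgeR. Lama1, Lamb1 and Lamc1 lie between -1.27 and -0.83, near Col4a1 and Col4a2, while Lama2, Lama4, Col4a5 and Col4a6 lie between 1.02 and 2.07.

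Transcription factors of the endoderm and marker genes of the cell types an EB can hold were set beside the chains, and their part in the results was not tested. The counts of these lists over d6 to d12 stand beside 19.6% of all genes higher and 18.7% lower. Of 7 endoderm factors 6 were lower over d6 to d12 in shDis3l2 and none was higher, with a median of -1.24. Gata4, which is known to act in the formation of the endoderm layer, differed by -0.90 (adjusted p = 0.000360), Sox7 by -1.34 (adjusted p = 0.000712), Sox17 by -1.06 (adjusted p = 0.00134) and Hnf4a by -1.70 (adjusted p = 0.000339), whereas Gata6 had 0.25 (adjusted p = 0.398). All 7 rose from d0 to d4, against 34.6% of the 20050 genes tested in that step.

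Of 9 parietal and primitive endoderm markers, which include 4 of these factors and Sparc, 6 were lower and none higher over d6 to d12. Their summed level lay between 3201 and 8219 CPM in shLacZ and between 1598 and 5664 CPM in shDis3l2. All 8 visceral endoderm markers, of which Hnf4a and Foxa2 are also among the factors, were lower, with 2784 to 6318 CPM in shLacZ and 540 to 1713 CPM in shDis3l2. Of 5 epithelial markers 4 were lower, and of 6 pluripotency markers 5 were lower. In the same libraries in which Lama1, Lamb1 and Lamc1 were lower, endoderm, epithelial and pluripotency markers were lower too.

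Mesenchymal and muscle markers were higher in shDis3l2 over the same days as Lama2, Lama4, Lamb2 and Lamc3. All 6 mesenchyme markers were higher in shDis3l2, with a summed level of 843 to 16035 CPM against 105 to 1515 CPM, and all 5 muscle markers tested were higher, with 485 to 2138 CPM against 72.0 to 159 CPM. The courses over time differed. From d6 to d12 in shDis3l2 the mesenchyme sum was 843, 9460, 15621 and 16035 CPM. Over these days Lama4 was at 149, 55.6, 26.0 and 31.4 CPM, and Lama2 went from 17.9 CPM at d8 to 8.24 CPM at d12. Lamb2 rose, from 77.8 CPM at d6 to 196 CPM at d12. Acta2 of smooth muscle differed by 3.49 (adjusted p = 0.000189), and Myog of skeletal muscle was at 0 reads in every library from d6 on. Of 6 endothelial markers 2 were higher, Kdr and Emcn, and none was lower, with 201 to 418 CPM against 96.1 to 230.0 CPM, although at d12 the sum was 201 CPM in shDis3l2 against 211 CPM. Of 5 neural markers 1 was higher and 2 were lower, with 70.9 to 180 CPM against 35.9 to 86.0 CPM.

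**Figure D5:**
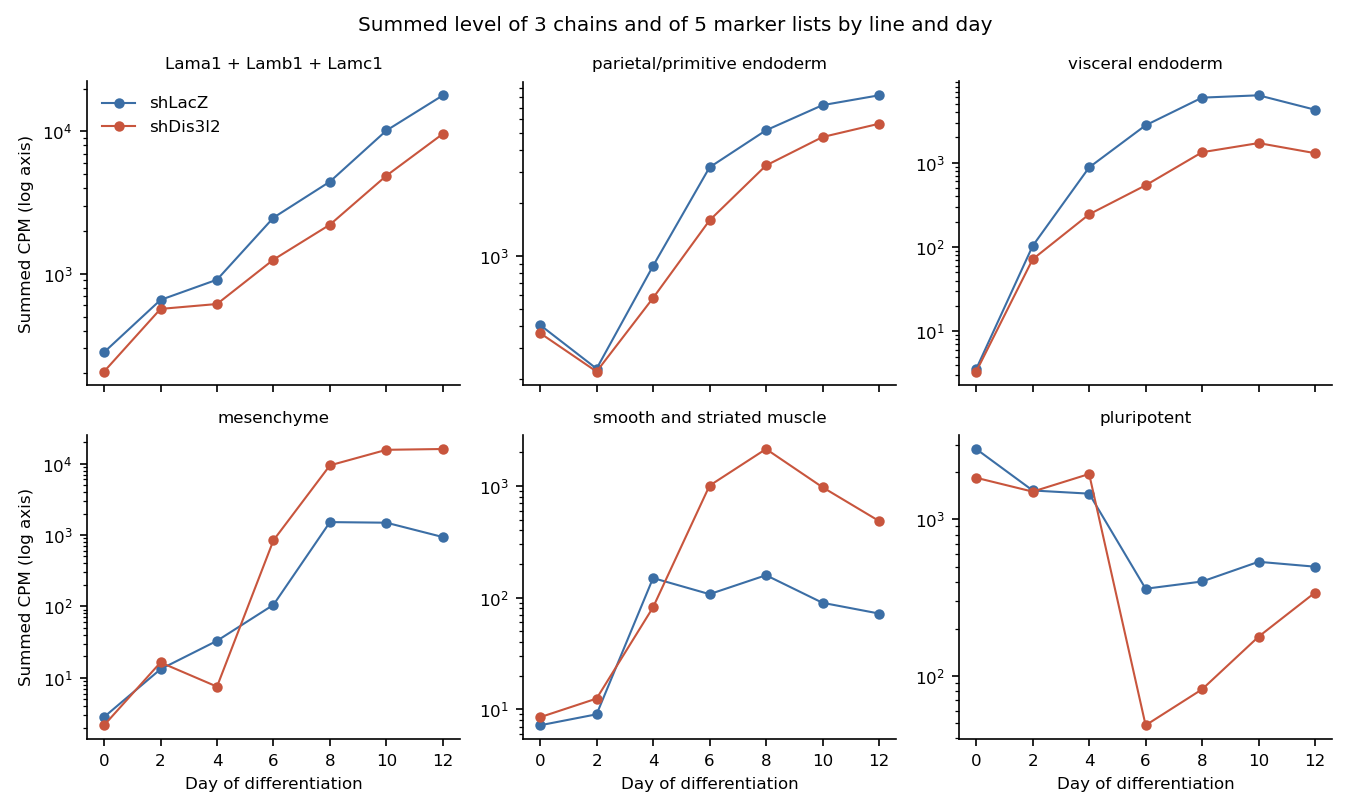
Summed CPM (y axis, log axis with its own range in each panel) of Lama1, Lamb1 and Lamc1 and of 5 marker lists by day of differentiation (x axis, days) in shLacZ (blue) and shDis3l2 (red), with 1 library per point. The 3 chains and both endoderm lists lie higher in shLacZ than in shDis3l2 on every sampled day, with the visceral list past its maximum by d12. The gap is small for the parietal and primitive list at d2 (229 against 221 CPM). The parietal and primitive list is mostly Sparc from d6 on. The mesenchyme and muscle lists are higher in shDis3l2 from d6 on and the pluripotent list lower.

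Over the 14 libraries, which share their days and lines, the log2(CPM + 1) of Lama1 followed that of Lamc1 (Pearson r = 0.977) and Lamb1 (r = 0.891), and Lamb1 that of Lamc1 (r = 0.949). Lama5 ran against Lamb2 (r = -0.750). The 5 genes most like Lama1 among 11567 protein-coding genes with at least 10 CPM in 1 library were Spock1 (r = 0.992), Fxyd3 (0.989), Enpep (0.988), P4hb (0.987) and Sh3tc2 (0.987). Those most like Lamb1 were Crim1 (0.990), Pdcd4 (0.981), Pde4dip (0.981), Tm9sf4 (0.980) and Samd8 (0.980). The 2 most like each of the others were Hs3st1 and Fam129b for Lamc1 (0.992 and 0.984), Pim2 and Zic5 for Lama5 (0.969 and 0.967), Plac1 and Cd44 for Lama4 (0.983 and 0.980) and Ext2 and Cuedc1 for Lamb2 (0.977 and 0.976). These lists depend on the measure, since with Spearman rho 1 of the 5 genes was shared for Lama1 and 0 for Lamb1. For the scarce chains they were Ak5 and Cntln for Lama2 (0.979 and 0.977), Oasl2 and Parp12 for Lama3 (0.899 and 0.883) and Tbx4 and D330045A20Rik for Lamc3 (0.857 and 0.844).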

How the data were processed

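PolyA RNA of 14 libraries was sequenced, and per the labels and the methods the authors aligned the reads to GRCm38 with Subread, assigned them to genes with featureCounts, and deposited counts of whole reads for 50686 genes. The CPM values that the authors deposited for 16181 genes are each the count with 0.25 added, divided by the sum over the listed genes, and they were used only to choose and check the chains. All CPM values in the text were computed from the counts and library totals. The chains, gene lists, markers, tests and named genes were chosen with earlier results of these data known. The columns of the knockdown line carry another name than the labels and were matched by day through the study's own version of the table.

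The edgeR quasi-likelihood test (version 4.0.16, R 4.3.3) was run on the counts of all genes left by filterByExpr, with TMM factors and a threshold of 0.05 on p adjusted by Benjamini-Hochberg, with DESeq2 1.42.0, library totals, DESeq2 size factors, no filter and left-out days as alternatives. Single days were compared by a fold of at least 3 with a CPM of at least 1. Intervals are at 95% and cover counting error only, since PCR copies of a molecule cannot be told apart. Whether counting used strand is not given in the sources used here. The tests were also run on simulated data with independent libraries. Such data cannot show how the tests behave when days of 1 series, or the 2 lines, stand in for replicates. Other steps used scipy 1.17.1, numpy 2.4.6 and pandas 2.3.3 in Python 3.11.15, and matplotlib 3.10.9 for plots. Promoter windows came from RefSeq.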

Additional observations from a re-analysis of the deposited data

Results flagged for a closer look

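The difference between the lines was itself different at d6 to d12 from that at d0 to d4 for 7 of the 9 chains, by the edgeR test of that change over the 14 libraries, which called 4.85% of all genes upwards and 5.24% downwards. On the log2 scale it changed by 2.43 for Lama2, 2.09 for Lama4, 0.77 for Lamb2 and 3.12 for Lamc3 towards shDis3l2, and by -1.03 for Lama1, -0.65 for Lama5 and -0.73 for Lamb1 towards shLacZ. The Lama4 ratio of the lines was below 1 on each of the 3 days up to d4 and above 1 on each of the 4 days from d6. Of the 7, Lama4 and Lamb1 passed the test under all 11 alternatives run.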

How the results depend on the processing

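The lower Lama1, Lamb1, Lamc1 and Lama5 and the higher Lama2 and Lama4 over d6 to d12 kept their direction under all 9 alternatives and passed the test under 8, all but the fit of d6 and d12 alone, an alternative chosen after seeing the data. That fit called 0 genes, with 1 residual degree of freedom. The number of genes called over d6 to d12 was 6574, and with 1 day left out it ranged from 3336 to 6678. Over all 7 days it was 1147, with 2522 by DESeq2, 2093 without a filter, and 8 to 2190 with 1 day left out. The change of the line difference called 2023, with 3279 without a filter and 524 to 2151 with 1 day left out. The step from d6 to d12 called 1439, with 2706 by DESeq2 and 167 from the 2 days of the step alone. The number of chains past the single-day criterion was 1 at d0 with library totals, 0 with TMM, 0 with DESeq2 size factors and 2 with a 2-fold criterion. At d4 it was 1, and 2 without a minimum CPM or with a 2-fold criterion. With a 2-fold criterion it was 6 in place of 3 at d10 and 2 in place of 1 at d12. The sign turned for 3 values that had missed the test. The 7-day difference of Lama4 became -0.030 without d6 (range with 1 day left out -0.030 to 0.52), that of Lamb2 became -0.042 without d8 and -0.021 without d10 (range -0.042 to 0.20), and the d0 to d4 step of Lama1 became 0.52 with library totals. The cause was not tested. Lama3 and Lamc3 rest on 1 to 112 reads a library. The line fits over several days were paired by day, with day as the block, and the labels give no replicate numbers.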

Other observations

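From d8 on, the 3 chains of the early trimer in shDis3l2 lay close to their level in shLacZ on the sampled day before, a comparison chosen after the values were seen. Lama1 was at 699, 1830 and 3816 CPM in shDis3l2 at d8, d10 and d12. In shLacZ it was at 830, 1632 and 3976 CPM at d6, d8 and d10. For shDis3l2 at d6 against shLacZ at d4, the ratios were 1.35 for Lama1, 1.24 for Lamb1 and 1.55 for Lamc1. At d2 and d4 such ratios ran from 0.675 (Lamc1 at d4) to 5.92 (Lamb1 at d2). From d8 to d12 the 9 ratios of shDis3l2 to shLacZ on the same day lay between 0.428 and 0.547. Against shLacZ of the day before, the 9 ratios lay between 0.842 and 1.23. Such a ratio equals the same-day ratio multiplied by the rise in shLacZ between the days. It therefore restates values given above and is not a separate result. For Lama4 the ratios to the day before were 1.02, 0.892 and 2.57 at d8, d10 and d12, the first 2 within that range, against 1.91, 2.12 and 1.53 on the same day. For the other chains with at least 10 CPM in 1 library they lay outside it, at 0.513 to 0.768 for Lama5, 1.71 to 2.11 for Lamb2 and 34.0, 3.60 and 3.09 for Lama2, the first on 7 reads in shLacZ. The difference between these ranges was not tested.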
